A study of Mus musculus with 12 samples.

Results

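The nuclear genes for subunits of the oxidative phosphorylation complexes were examined in microglia, the resident macrophages of the brain, sorted from 4 regions of the adult mouse brain. Genes were taken by symbol (Nduf, Sdh, Uqcr, Cox and Atp5 names, without pseudogenes), and 85 of the 23337 symbols in the count table matched. The 76 with a mean of at least 50 counts over the 12 libraries were kept: 35 of complex I, 4 of complex II, 8 of complex III, 11 of complex IV, 15 of ATP synthase, and 3 that match by name without encoding a structural subunit (Cox4nb, now called Emc8, Atp5s and Atp5sl). The count minimum removed Ndufs5, a complex I gene with a mean of 44.6 counts, and 8 tissue-specific isoform genes. No kept gene lay close above the minimum: the lowest were Atp5g2 (151.9 counts), Ndufb4 (157.1) and Atp5l (160.1). None of the mitochondrially encoded subunits has a symbol in the table.

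All 4 groups were untreated wild type C57BL/6N males at postnatal day 60, and differed in region only: cortex, hippocampus, striatum and cerebellum, with 3 libraries each. Each library came from 3000 live cells sorted through a TMEM119+ gate that was also CD45 low and CD11b+, after tissue of that region had been pooled from 3 to 5 mice. RNA was read by bulk sequencing of full-length cDNA, so a lower value can stand for fewer cells of a type or for less RNA per cell, and these cannot be told apart. The sources do not say that the pools of a region held different mice. The p-values therefore weigh differences between region means against the spread of these libraries, which may be technical.

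Oxidative phosphorylation takes place at the inner mitochondrial membrane. Complexes I and II pass electrons from NADH and succinate to coenzyme Q, complex III passes them on to cytochrome c, and complex IV hands them to oxygen; all but complex II pump protons, and ATP synthase uses the proton gradient to make ATP. The subunits of complexes I, III, IV and ATP synthase are encoded partly in the nucleus and partly in mitochondrial DNA, whereas complex II is wholly nuclear. Homeostatic microglia can burn glucose, fatty acids and glutamine through this chain, and activated macrophages are known to shift toward glycolysis.

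Total counts ran from 6479839 (striatum 2) to 14833340 (cortex 2), and the 76 genes took between 0.576% and 1.20% of them. The 8 microglia markers summed to 26565 to 36555 CPM (counts per 1000000, on library sizes scaled by TMM) in every library. Against this stood 6.58 to 41.9 CPM for 10 neuronal markers and 36.3 to 113 CPM for 7 astrocyte markers. Oligodendrocyte markers summed to 99.9 to 200 CPM, and lymphocyte markers to 92.5 to 204 CPM, highest in cortex 1. Macrophage and choroid plexus markers are given below. Cortex 1, hippocampus 2 and cerebellum 1 stood apart for the genes described here, and results are given with and without these 3 libraries. Striatum 2, the shallowest library, stood apart in another way: the log2 deviations of the 76 genes from their own means had an SD of 0.87 there, against 0.15 to 0.33 in the other 11.

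All 76 genes had counts in each of the 12 libraries. Levels per kilobase of an annotated transcript allow a rough comparison between genes, since libraries also differed in their trend over transcript length (below). Atp5b (the catalytic beta subunit of ATP synthase) was highest at a mean of 387 CPM per kb over the 12 libraries. Cox4i1 (the ubiquitous isoform of complex IV subunit 4) followed at 367, Cox6a1 at 272, Ndufb8 (an accessory membrane-arm subunit of complex I) at 249.8, and Uqcrc1 (a core protein of complex III) at 237. The lowest structural subunits among the 76 genes were Ndufb4 at 14.7, Atp5l at 26.7 and Ndufs4 at 27.6 CPM per kb. Ndufs5, which the count minimum removed, stood at 7.72. Atp5l has 2 named pseudogenes, whose effect on its count was not tested. The median over the genes of a complex was 154 CPM per kb for complex III, 151 for complex IV, 146 for complex II, 119 for ATP synthase and 80.4 for complex I. Among the 76, genes of the same complex differed widely in level. Complex I ran from Ndufb4 at 14.7 to Ndufb8 at 249.8 CPM per kb, and complex II from the membrane anchor Sdhc at 31.6 to the other anchor Sdhd at 174.

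**Figure D1:**
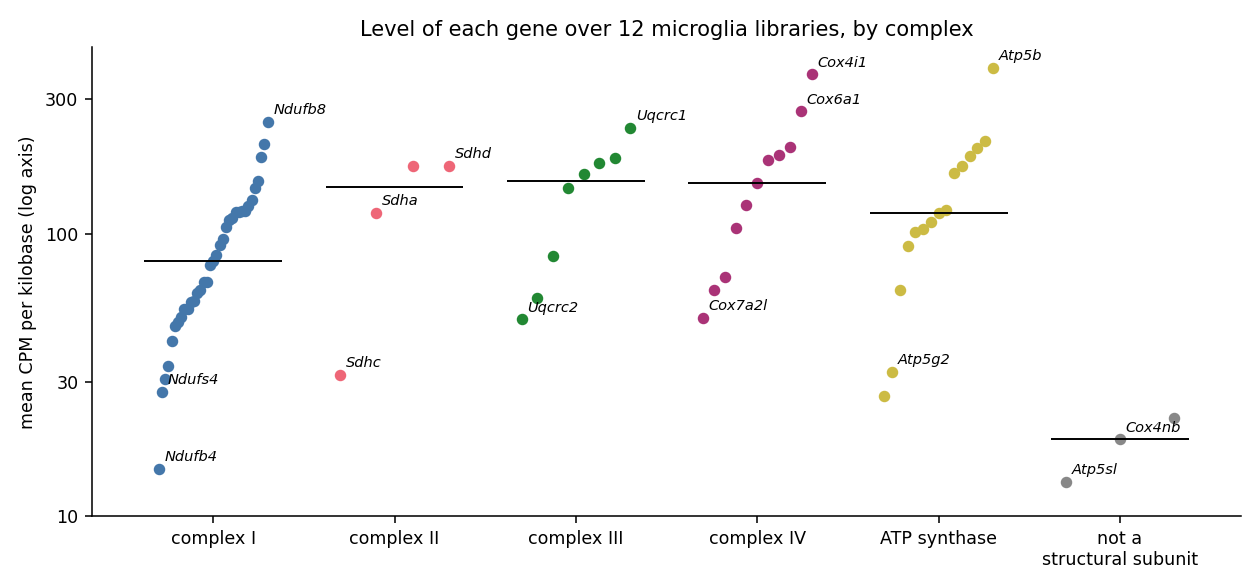
Mean level of each of the 76 genes over the 12 libraries in CPM per kilobase of transcript (log axis), arranged by complex; the horizontal line is the median of the complex. Atp5b (387) and Cox4i1 (367) are the highest points, and complex I has the lowest median of the 5 complexes (80.4).

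Where a subunit has alternative genes, the ubiquitous one had the higher level. Per kilobase, Cox4i1 stood at 367 CPM and its hypoxia- and lung-associated counterpart Cox4i2 at 0.744. Cox6a1 stood at 272 CPM per kb against 1.71 for the heart and muscle gene Cox6a2, and Cox6b1 at 203 against 4.19 for the testis gene Cox6b2. Cox7a2 stood at 105 CPM per kb and the supercomplex-associated Cox7a2l at 50.3, against 1.02 for the muscle gene Cox7a1. Cox8b, Cox8c, Cox7b2 and Ndufa4l2 had no count in any of the 12 libraries, whereas Cox8a had 183, Cox7b 63.2 and Ndufa4 209 CPM per kb. For the shallowest library, 0 counts leave room for 3 counts, which is 0.485 CPM (counting error only). By region, Cox4i1 averaged 306 ± 91.0 CPM in cortex and 247 ± 42.3 in striatum, against 1.08 ± 1.06 and 0.422 ± 0.731 for Cox4i2 (SD, n = 3). Ndufa4 is grouped here with complex I by its symbol, although its protein has been found in complex IV.

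The c subunit of ATP synthase, which forms the rotor ring, is the same mature protein from each of its 3 genes. Per kb, Atp5g3 stood at 165, Atp5g1 at 119 and Atp5g2 at 32.4 CPM. Atp5g2 also did not follow the other genes across libraries: it held 24.2, 14.0 and 9.09 CPM in cortex, 8.43, 17.4 and 10.7 in hippocampus, 10.5, 22.1 and 14.2 in striatum, and 10.4, 10.5 and 19.6 in cerebellum (libraries 1, 2 and 3 of each). The regions overlapped throughout, and its correlation with the mean of the other members was 0.19 over the 12 libraries.

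For the 76 genes as a whole, single libraries within a region spread more than the means of the regions, which averaging alone can give. On the log2 CPM scale (prior count 2), with each gene set against its own mean over the 12 libraries, the mean deviation of the 76 genes was 0.65 in cortex 1, 0.47 in hippocampus 2 and 0.31 in cerebellum 1. It was 0.01 and −0.05 in the other cortex libraries, −0.04 and −0.20 in hippocampus 1 and 3, −0.24, −0.26 and −0.06 in striatum, and −0.10 and −0.48 in cerebellum 2 and 3. Each of the 3 high libraries thus stood well above the others of its own region, and cerebellum held both a high library and the lowest of all. The SD of the 4 region means was 0.18, against a pooled SD within regions of 0.33. A mean of 3 libraries spreads less than a single library even where regions do not differ. These SD values therefore do not show whether the regions differ. The region means spanned 0.39 and single libraries 1.13, though a span of libraries cannot be smaller than that of their means. Without the 3 libraries the SD values were 0.12 and 0.15, and the spans 0.28 and 0.49. In that setting the regions spread more than the libraries within them for complexes II and III: the SD of the 4 region means was 0.13 against a pooled SD within regions of 0.10 for complex II, and 0.16 against 0.12 for complex III, with 2 or 3 libraries a region and no test.

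**Figure D2:**
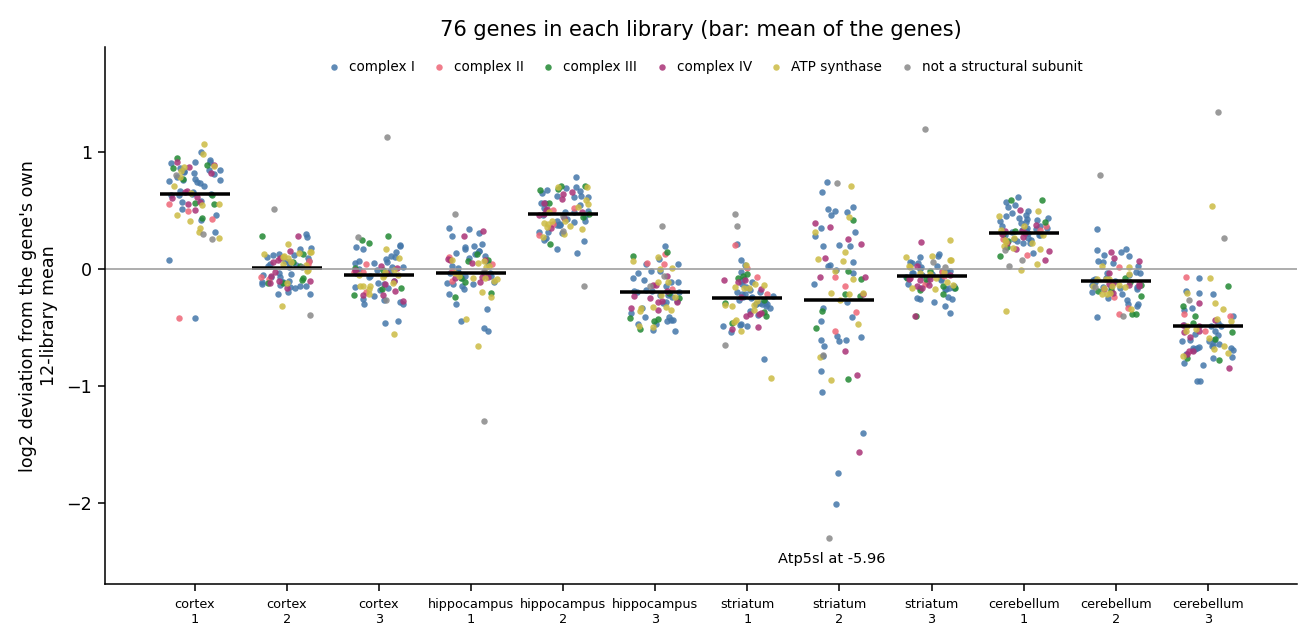
Log2 deviation of each of the 76 genes from its own 12-library mean (vertical axis) in each library, coloured by complex, with the mean of the genes as a black bar; Atp5sl in striatum 2 (−5.96) is drawn at the lower edge. The bars of cortex 1 (0.65), hippocampus 2 (0.47) and cerebellum 1 (0.31) lie above those of the other libraries, cerebellum 3 is lowest (−0.48), and striatum 2 has the widest scatter.

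The shift ran through every complex. In cortex 1, the mean deviation was 0.68 for complex I, 0.26 for complex II, 0.71 for complex III, 0.70 for complex IV and 0.65 for ATP synthase. In cerebellum 3 it was −0.58, −0.35, −0.50, −0.57 and −0.41 in the same order. Above their own mean were 74 of 76 genes in cortex 1, 75 in hippocampus 2 and 74 in cerebellum 1, and 3 in cerebellum 3 (Atp5g2, Atp5sl and Cox4nb), while 41.1% to 59.3% of all tested genes lay above their own mean in any library. For 59 of the 76 genes cortex 1 was the highest library, and for 42 cerebellum 3 was the lowest.

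The exceptions were few and had long transcripts in cortex 1. Ndufs1, a core iron-sulfur subunit of complex I (transcript of 2590 bases), had its lowest level there, with 104, 124 and 149.6 CPM in cortex, 137, 167.5 and 121.5 in hippocampus, 162, 169 and 116 in striatum, and 162.5, 155.5 and 120.1 in cerebellum. Sdha, the flavoprotein of complex II that oxidises succinate (2900 bases), held 256, 353 and 335 CPM in cortex, 318.5, 419 and 374.5 in hippocampus, 395, 308 and 328 in striatum, and 371.5, 345 and 326 in cerebellum. Both genes overlapped between all regions, and their correlations with the mean of the other members were −0.09 and −0.15. The other exception in a high library besides the c subunit genes Atp5g2 and Atp5g3 in cerebellum 1 was Cox4nb (4942 bases) in hippocampus 2.

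Transcript length moved with the same libraries. The 76 genes have short transcripts, with a median of 760.5 bases against 2705 for all tested genes. In cortex 1, all 720 tested genes of up to 800 bases had a median deviation of 0.66, and the 4734 genes of over 3200 bases one of −0.31. The corresponding medians were 0.36 and −0.11 in hippocampus 2, 0.29 and −0.18 in cerebellum 1, and −0.28 and 0.36 in cerebellum 3. Within the 76 genes, the 48 of up to 1000 bases had a mean deviation of 0.75 in cortex 1, the 28 longer ones 0.47, and the 7 of over 2000 bases 0.20. With each library's trend over transcript length removed (a lowess curve across all tested genes), the mean deviation of the 76 genes came to 0.11 for cortex 1, 0.17 for hippocampus 2, 0.05 for cerebellum 1 and −0.29 for cerebellum 3, and single libraries spanned 0.50 in place of 1.13. After this step cerebellum 3 and striatum 1 (−0.23) were the lowest libraries, and striatum 2 was the highest (0.21).

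**Figure D3:**
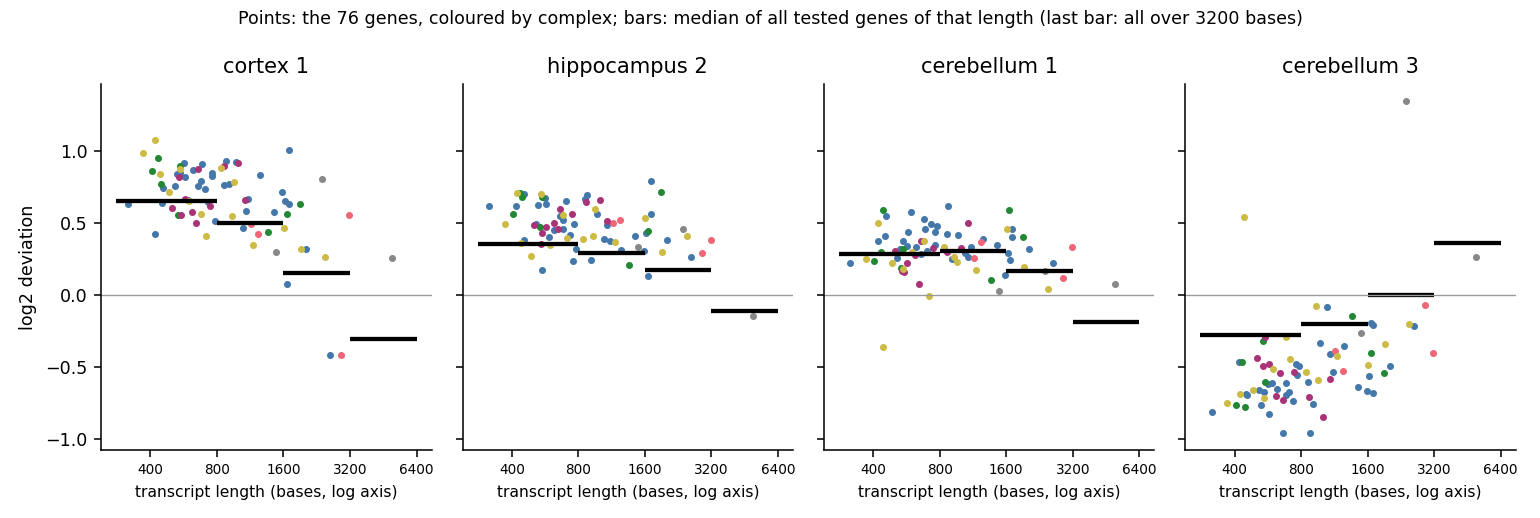
Log2 deviation of the 76 genes (points, coloured by complex) against transcript length in bases (log axis) in 4 libraries; the black bars are the medians of all tested genes in 4 length classes. In cortex 1 the bars step down from 0.66 for genes of up to 800 bases to −0.31 for those over 3200, with the points around them, and in cerebellum 3 they step up from −0.28 to 0.36.

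Markers of border-associated macrophages also differed between these libraries: the 7 genes summed to 250 to 359 CPM in the 3 high libraries and to 399 to 839 CPM in the other 9. None of the 7 was at 0 in all libraries. The 8 choroid plexus and ependymal markers reached 847 CPM in striatum 2 and 296 CPM in cerebellum 3, against 0.0760 to 126 CPM in the others. Their part in the levels of the respiratory genes was not tested.

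The genes varied together. Over the 12 libraries, the median Pearson correlation between 2 of the 76 genes was 0.74, against 0.02 between any 2 tested genes. It was 0.82 within complex IV, 0.80 within complex III, 0.75 within ATP synthase, 0.73 within complex I and 0.46 within complex II. Without the 3 high libraries the median was 0.39, and without striatum 2 as well it was 0.55. These are descriptions over points that share library, depth and length class, and no p is given.

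Some other short transcripts followed the same course. The genes outside the set whose log2 CPM was most like the mean of the 76 genes were Nedd8 (a ubiquitin-like modifier, r = 0.98), Arpc3 (an actin-nucleating Arp2/3 subunit, 0.98), Atpif1 (the inhibitor of ATP synthase, 0.97) and Rpl19 (a ribosomal protein, 0.97), over 12 libraries. Their transcripts are 514, 899, 539 and 751 bases long. The 88 tested cytosolic ribosomal protein genes had a median r of 0.85 with that mean, with 60 of them over 0.8, and the 76 mitochondrial ribosomal protein genes one of 0.68. For the 1100 other genes with transcripts of up to 1000 bases it was 0.45, with 231 of them over 0.8 and 176 below 0. Over all tested genes the median was 0.10, with 4.94% over 0.8.

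Other listed genes of the respiratory pathway followed less closely in these libraries, by the median r of each list. The lists hold only genes whose listed symbol is in the count table, so genes kept under another symbol are missing. Their transcript lengths were not compared with those of the 76 genes. A list of 8 genes held the adenine nucleotide and phosphate carriers Slc25a3, Slc25a4 and Slc25a5, with Ucp2, Vdac1, Vdac2, Vdac3 and Atpif1. The median r with the mean of the 76 genes was 0.80 for this mixed list. It was 0.44 for 17 genes of the TCA cycle and pyruvate entry, 0.40 for 15 genes of electron carriers and coenzyme Q synthesis, 0.31 for 26 assembly factors and 0.23 for 11 nuclear regulators such as Nrf1 and Gabpa. In striatum minus cortex the median log2 difference was −0.34 for electron carriers and coenzyme Q, −0.28 for assembly factors and −0.20 for the mixed list of 8. It was −0.16 for the regulators, −0.13 for the TCA cycle, −0.52 for cytosolic and −0.45 for mitochondrial ribosomal proteins. No gene of these 7 lists passed an adjusted p of 0.05 in either direction in any comparison of regions (edgeR quasi-likelihood test, Benjamini-Hochberg over all tested genes). At an unadjusted p under 0.05 in striatum minus cortex, 9 of 88 cytosolic ribosomal genes were lower, 4 of 76 mitochondrial ribosomal genes were lower and 1 higher, and the other lists had 0. Of all 12217 tested genes, 683 passed there (5.59%), 243 lower and 440 higher. The mitochondrial ribosomal share in both directions was 6.58%. Most of the ribosomal genes that passed were lower, whereas most of all genes that passed were higher, so these shares are not alike by direction.

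Since the genes varied together, promoters were searched for 3 motifs linked in textbooks to respiratory genes, within the 250 bases before the RefSeq start (build GRCm38.p6), on both strands. The motifs were GCGCANGCG for NRF1 (nuclear respiratory factor 1), CCGGAAG for ETS-family factors, to which GABPA belongs, and AAGATGGCG for YY1; none of these strings contains another. Of the 76 genes, 64 had a promoter entry. The NRF1 motif lay in 20.3% of these 64 promoters (13 genes) and in 5.86% of all 27025 genes with an entry, the ETS motif in 18.8% (12 genes) and 7.83%, and the YY1 motif in 3.13% (2 genes) and 0.710%. At least 1 of the 3 was found in 34.4% of the members' promoters and 13.2% of all. The genes with an entry include many that were not tested here, and the shares among tested or short genes were not taken. Whether the motifs bear on the shared variation was not tested. A match is a description of sequence and not a site of binding. To show what the matches look like, 1 stretch of 60 bases is given for each complex, chosen among those wholly upstream of the annotated gene, 5′ to 3′ on the gene's strand with the motif in capitals.
Ndufa11 (complex I, NRF1 motif, chr17:56717677-56717736, + strand): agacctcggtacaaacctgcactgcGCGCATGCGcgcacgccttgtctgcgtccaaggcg
Sdhd (complex II, NRF1 motif, chr9:50603894-50603953, − strand): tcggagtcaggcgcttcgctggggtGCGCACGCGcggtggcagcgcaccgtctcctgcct
Uqcr11 (complex III, ETS motif, chr10:80406854-80406913, − strand): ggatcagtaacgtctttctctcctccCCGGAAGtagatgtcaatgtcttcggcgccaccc
Cox6a1 (complex IV, NRF1 motif, chr5:115349041-115349100, − strand): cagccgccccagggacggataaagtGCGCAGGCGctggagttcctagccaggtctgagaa
Atp5h (ATP synthase, NRF1 motif, chr11:115420026-115420085, − strand): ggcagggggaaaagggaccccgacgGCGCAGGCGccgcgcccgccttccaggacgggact

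Between regions, no gene of the set passed the test. In the comparison of the 4 regions together (edgeR quasi-likelihood test, Benjamini-Hochberg adjustment over 12217 tested genes, threshold 0.05) none of the 76 genes was called, as was 0% of all tested genes. At an unadjusted p under 0.05 there were 0 of 76, against 1.82% of all genes. DESeq2 called 0 of the 76 and 0.0412% of all genes it tested, and limma-voom 0 and 0%. The smallest value belonged to Uqcrc2, which encodes a core protein of complex III (edgeR adjusted p = 1.00).

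The 6 pairs of regions gave the same count. edgeR called 0 of the 76 genes and 0% of all genes in each pair, as did limma-voom. DESeq2 called 0 of the 76 in each pair, against 0.0412% of all genes for hippocampus and cortex, 0.0988% for striatum and cortex, 0.0576% for cerebellum and cortex, 0% for striatum and hippocampus, 0.0165% for cerebellum and hippocampus and 0.0247% for cerebellum and striatum. At an unadjusted p under 0.05, edgeR gave 4 of the 76 genes for striatum against cortex (Uqcrc2, Ndufs4, Atp5o and Ndufb8), or 5.26% against 5.59% of all genes. All 4 were lower in striatum, whereas most of all genes with such a p were higher there, so these shares are not alike by direction. For striatum against hippocampus edgeR gave 2 (Uqcrc2 and Ndufs4), or 2.63% against 4.34% in both directions, and it gave 0 in each other pair. The shares of all genes in those pairs were 1.01% (hippocampus and cortex), 1.55% (cerebellum and cortex), 1.28% (cerebellum and hippocampus) and 2.4% (cerebellum and striatum).

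The 3 libraries of one region lay wholly below those of the other for 7 of the 76 genes in striatum against cortex (9.21%, against 5.96% of all genes) and for 9 in striatum against hippocampus (11.8%, against 6.59%). In the same 2 pairs, the share was 10.4% and 8.36% for the 1100 other genes with transcripts of up to 1000 bases. In hippocampus against cortex the gene was Atp5sl alone (background 3.05%), and in the other pairs there was none (background 2.93% for cerebellum and cortex, 3.55% for cerebellum and hippocampus, 2.4% for cerebellum and striatum). No gene of the set lay wholly above in any pair. Background shares in that direction were 3.63% for hippocampus over cortex, 4.61% for striatum over cortex, 3.82% for cerebellum over cortex, 4.9% for striatum over hippocampus, 4.08% for cerebellum over hippocampus and 3.95% for cerebellum over striatum.

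Coordinates below are those of the gene models in GRCm38. In complex III, Uqcrc2 (chr7:120635176-120659524) held 140.5, 99.0 and 109.9 CPM in cortex, 76.6, 148 and 100.3 in hippocampus, 65.7, 63.5 and 68.5 in striatum, and 119.7, 79.8 and 62.2 in cerebellum. The 3 striatum libraries were close to each other and lay below every cortex and hippocampus library, whereas cerebellum overlapped with all regions. The log2 difference was −0.82 ± 0.30 (SE) for striatum minus cortex and −0.72 ± 0.30 for striatum minus hippocampus (edgeR adjusted p = 0.798 and 0.948). Without cortex 1, hippocampus 2 and cerebellum 1 the differences were −0.67 and −0.43; the latter was also −0.43 without hippocampus 2 alone. Exons of Uqcrc2 overlap those of Pdzd9 on the opposite strand, and the counting cannot be assumed to separate them.

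Its partner core protein gene Uqcrc1 (chr9:108936633-108949623) held 555.5, 347 and 446 CPM in cortex, 412, 512 and 408 in hippocampus, 364.5, 196 and 325 in striatum, and 565, 288 and 284 in cerebellum. Striatum lay below hippocampus in every library and overlapped with cortex. The log2 difference of striatum minus hippocampus was −0.59 ± 0.30 (SE), and −0.36 without striatum 2, its lowest library. Uqcrh, the hinge protein of complex III, had the smallest p among the 76 genes for cerebellum minus cortex (log2 difference −0.61 ± 0.36, unadjusted p = 0.121), with 80.8, 45.2 and 50.7 CPM in cortex and 54.3, 33.3 and 28.5 in cerebellum, which overlap. Without cortex 1 the difference was −0.31.

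In complex I, Ndufs4, an accessory subunit whose loss causes Leigh-like disease in mice (chr13:114287795-114388258), held 85.8, 38.7 and 48.9 CPM in cortex, 54.5, 73.9 and 39.9 in hippocampus, 30.5, 12.6 and 41.2 in striatum, and 58.8, 40.3 and 37.0 in cerebellum. All regions overlapped except that 2 of the 3 striatum libraries were below every other library. The log2 difference of striatum minus cortex was −1.04 ± 0.45 (SE), and it was −0.69 without striatum 2 and −0.64 without cortex 1. Without the 3 high libraries and striatum 2 it was −0.29. Against hippocampus it was −0.99 ± 0.45, −0.64 without striatum 2 and −0.39 without the 4 libraries.

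Ndufb8 (chr19:44548572-44555440) held 280.1, 155 and 182 CPM in cortex, 184, 232 and 149.9 in hippocampus, 137, 88.3 and 148 in striatum, and 233, 150.1 and 100.01 in cerebellum. Striatum lay below cortex and hippocampus in every library, with 148 CPM at its highest against 155 and 149.9 CPM at their lowest. The log2 difference of striatum minus cortex was −0.72 ± 0.33 (SE, edgeR adjusted p = 0.798). Ndufb8 shares exonic sequence with the overlapping gene model Gm20538 on its own strand.

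Among other complex I genes that stood nearest to a difference in a pair, Ndufb7 and Ndufa13, both accessory subunits, had log2 differences of −0.37 ± 0.36 and −0.30 ± 0.30 (SE) for hippocampus minus cortex. Without cortex 1 these were −0.01 and 0.07. Ndufv3, the small subunit of the NADH-oxidising module, had −0.51 ± 0.33 for cerebellum minus cortex, −0.29 without cortex 1 and −0.32 without cerebellum 3. The 7 core subunits shifted less in cortex 1 (mean deviation 0.39) than the 28 accessory ones (0.75), a difference that was not tested.

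In complex II, the summed level of the 4 genes was highest in hippocampus (941 ± 160 CPM), followed by cortex (875 ± 70.8), cerebellum (815 ± 162) and striatum (799 ± 69.2; SD, n = 3). All of these ranges overlapped. Without the 3 high libraries the sums were 850 CPM in hippocampus, 834 in cortex, 799 in striatum and 723 in cerebellum. Sdhd, a membrane anchor, held 282, 200.4 and 206 CPM in cortex, 216.5, 302 and 216 in hippocampus, 199.7, 163 and 206.5 in striatum, and 271, 166 and 145.5 in cerebellum. Striatum lay just below hippocampus in every library (206.5 against 216 CPM at the nearest), and the other regions overlapped. Sdhb, the iron-sulfur subunit, had regional means of 220.1 ± 48.2, 214 ± 55.0, 178 ± 8.86 and 182 ± 44.5 CPM in cortex, hippocampus, striatum and cerebellum, and the anchor Sdhc averaged 112 ± 14.1 CPM in hippocampus and 87.8 ± 17.4 in striatum (SD, n = 3). Sdha had the smallest p among the 76 genes for hippocampus minus cortex, at a log2 difference of 0.24 ± 0.18 (SE, unadjusted p = 0.203), which was 0.10 without cortex 1, 0.14 without hippocampus 2 and 0.01 without the 3 high libraries.

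In complex IV, Cox5a, an accessory subunit on the matrix side, held 136, 117 and 84.1 CPM in cortex, 101, 132 and 92.0 in hippocampus, 85.2, 82.8 and 87.3 in striatum, and 101, 88.2 and 65.6 in cerebellum. Striatum again lay below hippocampus in every library. Its log2 difference from cortex was −0.40 ± 0.25 in both striatum and cerebellum (SE), and the difference of cerebellum was −0.25 without cortex 1. Cox7c and Cox7a2, small accessory subunits, had regional means of 84.3 ± 28.2, 69.5 ± 13.1, 54.9 ± 12.4 and 63.9 ± 14.8 CPM and of 82.4 ± 33.2, 77.0 ± 24.2, 52.4 ± 15.1 and 65.9 ± 23.6 CPM in the order above (SD, n = 3).

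In ATP synthase, Atp5o, the stalk subunit that confers oligomycin sensitivity (chr16:91925214-91931687), held 154, 96.9 and 80.6 CPM in cortex, 86.6, 109 and 84.2 in hippocampus, 61.8, 49.6 and 89.7 in striatum, and 106, 72.3 and 57.9 in cerebellum. Every pair of regions overlapped. Its log2 difference of striatum minus cortex was −0.72 ± 0.32 (SE), −0.41 without cortex 1, and −0.23 without the 3 high libraries and striatum 2. The annotation holds a second gene model with the symbol Atp5o and an overlapping gene on the opposite strand, so its count is uncertain.

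The genes of the 3 largest F1 head subunits were among the least variable. Atp5b held 915, 795 and 635 CPM in cortex, 697, 905 and 769.6 in hippocampus, 656, 771 and 668 in striatum, and 839.9, 664 and 580.5 in cerebellum, a coefficient of variation of 14.6%. Atp5a1, the alpha subunit, had one of 14.7% and regional means of 458 ± 64.7, 479 ± 81.5, 392 ± 25.8 and 394 ± 40.1 CPM (cortex, hippocampus, striatum, cerebellum; SD, n = 3), and Atp5c1, the central shaft, one of 16.7%. Striatum lay below hippocampus in every library for Atp5c1, with 176, 189 and 213 against 229, 281 and 218 CPM. The lowest coefficient of variation of the set was that of Ndufv1, the NADH-binding core subunit of complex I (12.2%), and the highest that of Atp5sl (50.5%), which had 1 count in striatum 2 and 55.1 CPM in cerebellum 3.

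Summed by complex, the level in cortex was 3022 ± 875 CPM for complex I, 1070 ± 279 for complex III, 1324 ± 407 for complex IV and 2614 ± 549 for ATP synthase (SD, n = 3). In hippocampus the sums were 2780 ± 637, 998 ± 236, 1241 ± 335 and 2541 ± 483 CPM. In striatum they were 2368 ± 114, 744 ± 69.9, 1031 ± 110.2 and 2181 ± 117, and in cerebellum 2497 ± 791, 860 ± 295, 1063 ± 296 and 2225 ± 448. Striatum, the only region without one of the 3 high libraries, had the smallest SD in each of these complexes. Without those libraries, the sum for complex I was 2517 CPM for cortex, 2421 for hippocampus, 2368 for striatum and 2082 for cerebellum, and that for ATP synthase 2311, 2262, 2181 and 1981. Striatum had the lowest mean in all 5 complexes with 12 libraries, and cerebellum had it in all 5 without the 3. The 3 were the highest libraries of their regions and none came from striatum. Leaving them out thus lowers the other regions against striatum by construction.

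**Figure D4:**
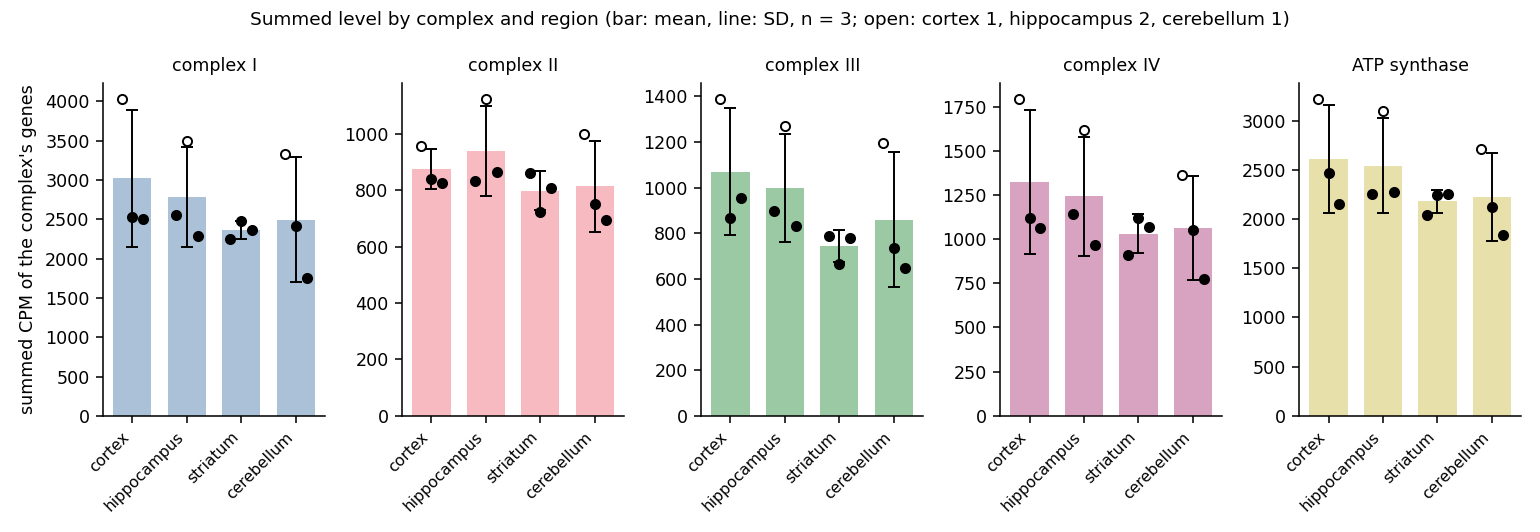
Summed CPM of the genes of each complex by region; bars are means, lines the SD (n = 3), and points single libraries, with cortex 1, hippocampus 2 and cerebellum 1 drawn open. In each complex the open point is the highest of its region, up to 4032 CPM for complex I in cortex 1, and the filled points of cerebellum reach lowest in every complex.

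Seen as a list, most of the 76 genes had lower means outside cortex. The median log2 difference was −0.36 for striatum minus cortex (73 of 76 below 0, against 54.3% of all genes, whose median was −0.06), −0.30 for cerebellum minus cortex (72 below 0, all genes 49.1%, median 0.01) and −0.13 for hippocampus minus cortex (63 below 0, all genes 52.9%, median −0.02). It was −0.27 for striatum minus hippocampus (65 below 0, all genes 53.8%, median −0.05), −0.19 for cerebellum minus hippocampus (67 below 0, all genes 48.7%, median 0.01) and 0.04 for cerebellum minus striatum (27 below 0, all genes 44.2%, median 0.06). These comparisons share libraries, and the 76 genes vary together, so the counts are not independent. Cortex 1 alone moved the medians against cortex: without it they were −0.10 for striatum, −0.04 for cerebellum and 0.14 for hippocampus.

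Same-numbered libraries of cortex and cerebellum deviated together, so this pair was also taken by number. The labels do not state such a pairing. It was picked from these same libraries, so the values by number are a description and no independent support. The mean deviation of the 76 genes in cerebellum minus cortex was −0.34 for the libraries numbered 1, −0.11 for those numbered 2 and −0.44 for those numbered 3, lower in 3 of 3. A fit of these 6 libraries with the number as a replicate block gave a median log2 difference of −0.30 (all genes 0.01), with 73 of 76 below 0. It called 0 of the 76 genes and 0% of all genes (edgeR, smallest adjusted p of a member 0.683), and 9 of the 76 (11.8%) had an unadjusted p under 0.05, against 7.31% of all genes and 0 of 76 without the block.

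The other 1100 genes of up to 1000 bases stood near the 76 in the comparisons with cortex, at medians of −0.34 (striatum), −0.21 (cerebellum) and −0.15 (hippocampus). For the cerebellum against hippocampus their median was −0.05, above the −0.19 of the 76 genes.

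Without cortex 1, hippocampus 2 and cerebellum 1, the median of the 76 genes was −0.10 for striatum minus cortex, −0.28 for cerebellum minus cortex, −0.08 for hippocampus minus cortex, −0.03 for striatum minus hippocampus and −0.20 for cerebellum minus hippocampus. For cerebellum minus striatum it turned to −0.16, with 62 of 76 below 0. Part of this turn is built in, because cerebellum lost its highest library and striatum lost none. In this setting cerebellum rests on 2 libraries, of which cerebellum 3 was the lowest of all 12 and the other, cerebellum 2, stood at a mean deviation of −0.10. By complex, cerebellum minus cortex was then −0.28 for complex I, −0.32 for complex II, −0.37 for complex III, −0.23 for complex IV and −0.25 for ATP synthase, and no gene was called (edgeR, 0 of 76).

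With each library's trend over transcript length removed, the median was −0.13 for cerebellum minus cortex (all genes −0.01), −0.13 for cerebellum minus hippocampus (0.00) and −0.19 for cerebellum minus striatum (−0.09). It was 0.01 for hippocampus minus cortex (−0.01), 0.06 for striatum minus cortex (0.09) and 0.03 for striatum minus hippocampus (0.10). In the pairs with striatum this correction moved the median of all genes as well, from −0.06 to 0.09 for striatum minus cortex, from −0.05 to 0.10 for striatum minus hippocampus and from 0.06 to −0.09 for cerebellum minus striatum. In the 3 pairs with cerebellum the median of the 76 genes thus lay below that of all genes in this setting too. The same held for striatum minus cortex and striatum minus hippocampus, so it was not particular to cerebellum. With the trend removed, the mean deviation of the 76 genes was 0.05, −0.13 and −0.29 in cerebellum 1, 2 and 3. No gene was called (edgeR, 0 of 76).

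**Figure D5:**
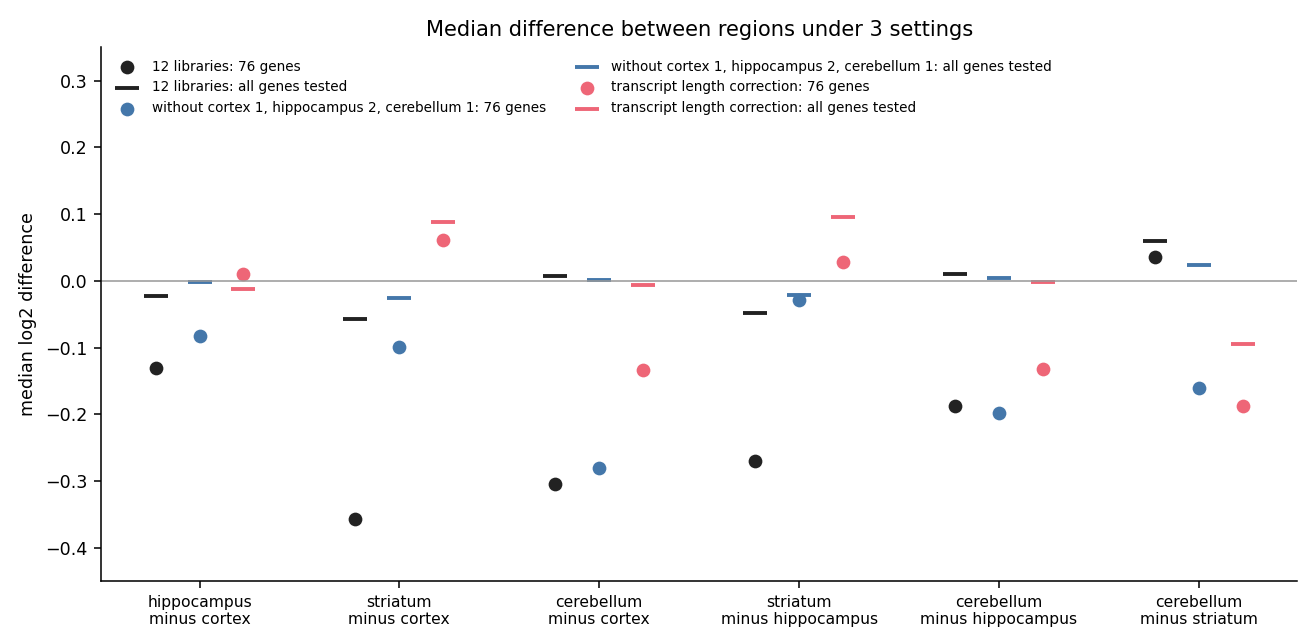
Median log2 difference in each pair of regions for the 76 genes (circles) and for all tested genes (dashes) with 12 libraries, without cortex 1, hippocampus 2 and cerebellum 1, and with the transcript length correction. The circle of striatum minus cortex moves from −0.36 to −0.10 and 0.06, and those of cerebellum minus cortex are −0.30, −0.28 and −0.13.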

How the data were processed

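Whole-number read counts per gene symbol for 12 bulk RNA-seq libraries, which the authors deposited without normalization, were used. Tools named per the submitters' processing notes are STAR 2.5.3a, Trim Galore 0.4.3, HTSeq and Picard, and the build is mm10. What each tool did, the annotation and the strand setting were not given in the sources used here. The genes and lists were chosen with earlier results of these data known.

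Counts were fitted with edgeR 4.0.16 in R 4.3.3 (filterByExpr by region, minimum count 10, minimum total 15, TMM, robust quasi-likelihood test, one mean per region, 12 libraries), with limma 3.58.1 (voom) and DESeq2 1.42.0 as alternatives. Adjusted p-values are Benjamini-Hochberg over the 12217 genes tested. All 76 genes passed the filter. CPM values use TMM-scaled library sizes. Lengths are those of the shortest principal transcript (GENCODE M21, GRCm38), found for 98.7% of tested genes and all 76. Exons of 22 of the 76 genes overlap another gene, and the library kit does not mark strand; Atp5c1, Atp5k, Atp5l and Uqcrh have named pseudogenes. Libraries of a region differed by more than sampling noise (chi-square over degrees of freedom 32.5 to 93.3), and none was treated as a copy.

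Genes were named by rule: per complex, the 3 smallest p over 4 regions and the 2 largest counts; all of complex II; the 3 smallest p of each pair; isoform pairs. Others were chosen after their values were seen. Residuals of same-numbered libraries correlated above 0.1 in all 3 cortex and cerebellum pairs (0.101 to 0.287) and in no other pair of regions in all 3. Different numbers were all below 0 there, down to −0.225, which follows in part because the residuals of a region sum to 0. This pairing was seen in the data and is not stated in the labels. The comparison of cortex and cerebellum was also fitted with the number as a block. The fits were tested on simulated counts. Without molecular identifiers, reads are not independent molecules.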

Additional observations from a re-analysis of the deposited data

How the results depend on the processing

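The count of 0 genes called held in all 121 alternatives for pairs and all 20 for the 4-region test: DESeq2 and its size factors, limma-voom, no filter on low counts, the replicate block (also for cortex and cerebellum alone), each library left out, the 3 or 4 libraries left out, and length correction. Member minimums of 10 and 200 counts and, chosen after seeing the data, sets without the 3 genes that encode no structural subunit or without those overlapping another gene left the sign of every median as it was. The 115 alternative values of the summed levels by complex moved by less than the spread between replicates. Where a library of 3 was left out this had to be so, and it does not show that the levels are stable. Without the 3 high libraries, the region with the lowest mean changed from striatum to cerebellum in every complex.

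The medians of the 76 genes depended on single libraries. Leaving out 1 library at a time, the median log2 difference ran from −0.345 to 0.139 for hippocampus minus cortex, from −0.478 to −0.0981 for striatum minus cortex, from −0.555 to −0.0436 for cerebellum minus cortex, from −0.403 to −0.0230 for striatum minus hippocampus, from −0.435 to 0.0631 for cerebellum minus hippocampus and from −0.157 to 0.209 for cerebellum minus striatum. The sign turned without cortex 1 or hippocampus 3 (0.139 and 0.0203, hippocampus minus cortex), without hippocampus 2 (0.0631, cerebellum minus hippocampus) and without cerebellum 1 (−0.157, cerebellum minus striatum). Transcript length correction turned it for hippocampus minus cortex (0.0109), striatum minus cortex (0.0616), striatum minus hippocampus (0.0278) and cerebellum minus striatum (−0.188). Cerebellum minus striatum also turned without the 3 high libraries (−0.160) and without these and striatum 2 (−0.133). Ndufa13 turned for hippocampus minus cortex without cortex 1 (0.0660), and ran from −0.480 to 0.0660 over single libraries left out. The cause was not tested.

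With the replicate block the medians were −0.11, −0.32, −0.31, −0.25, −0.20 and 0.01 for the pairs in the order of the leave-one-out ranges, and 0 genes were called. Libraries with the same number had correlated residuals of −0.12 to 0.287, with 4 of 18 pairs over 0.1, and 9 of 12 libraries correlated best with their own number. Of 36 pairs with different numbers, 2 were over 0.1. These were cortex 1 with hippocampus 2 (0.198) and hippocampus 2 with cerebellum 1 (0.191). All 3 pairs were over 0.1 for cortex and cerebellum only; there the block fit of these 6 libraries alone, added after seeing the data, gave a median of −0.30 and 0 genes called. In the other comparisons not all same-numbered pairs were over 0.1, and the labels do not say what a number stands for. The replicate block changed no call. Depth and 3 libraries per region limit what differences can be seen: the SE of a log2 difference was 0.17 for Atp5a1 and 0.45 for Ndufs4.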
